A study of Mus musculus with 18 samples.

Results

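Glutamate tRNAs carry glutamate to the ribosome and read its codons with the anticodons CTC or TTC. The members described here are all sites of the small RNA table whose name begins with tRNA-Glu-: 14 of 192 listed sites, in 7 of 128 RNAs. Of these, 4 genes with 8 sites have the anticodon TTC and 3 genes with 6 sites have CTC. The name alone picked these sites from the table, but the glutamate family was chosen with earlier results of these data known. In the naming scheme of tRNA genes, the first number marks an isodecoder, a set of genes with the same mature sequence, and the last number marks the gene copy, so the 7 genes stand for 3 isodecoders (TTC-1, TTC-2 and CTC-1).

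RNA 5-methylcytosine (m5C) is a methyl group on carbon 5 of cytosine. In mammalian tRNAs most of it is placed by NSUN2 where the variable loop meets the T arm, and by DNMT2 in the anticodon loop of a few tRNAs, and the mark is known for protecting tRNAs from cleavage. Glutamate tRNAs are known for giving rise to abundant tRNA fragments in sperm. NSUN7 belongs to the same protein family as NSUN2 and is expressed in testis.

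Testes came from adult wild-type (WT) mice and from adult mice with a knockout of Nsun7, and the labels name no other allele, strain or treatment. The small RNA fraction was sequenced in 3 WT and 3 knockout libraries after ultrafast bisulfite treatment, which turns unmethylated cytosine into uracil. The level of a site is the percentage of covering reads that still show C, so a cytosine that escaped conversion counts as m5C, and how complete conversion was is not analysed here. Whether each library came from its own animal is not stated in the labels, so a p-value here measures the spread from library to library, which may be technical. The deletion itself and the identity of the tissue were not checked here, since the small RNA table holds no protein-coding expression.

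Coverage summed over all listed small RNA sites was 4674265 to 5096438 per library, and glutamate tRNA sites took 66.5% to 71.7% of it. The lowest share was in WT replicate 1, where coverage at the other listed sites was a median 1.14 times the mean of the other 5 libraries. All 14 members had at least 10 reads in every library. The 7 genes spanned from 209 reads in the thinnest library of tRNA-Glu-CTC-1-6 to 978773 in the deepest of tRNA-Glu-TTC-1-1.

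Each glutamate tRNA gene had the same layout, 2 listed sites at adjacent positions and no more. The strand sign is plus at every one of the 192 small RNA sites, so it does not tell the 2 strands apart. Upstream here means only the lower-numbered of the 2 positions. For a gene that in fact lies on the minus strand, upstream and downstream would change places, and whether any of the 7 does was not checked. Coordinates are those of the files, whose build is GRCm39 per the submitters' processing notes. No tRNA sequence or numbering of tRNA positions was used here, so the sites are not assigned to a loop or arm.

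The TTC genes stood at the top. tRNA-Glu-TTC-1-1, on chromosome 7 at positions 58049110 and 58049111, had upstream levels of 98.77%, 98.86% and 98.68% in WT replicates 1 to 3, and knockout replicates 1 to 3 had 98.83%, 98.92% and 98.83%. Its downstream site stood at 97.77%, 97.94% and 97.65% among WT libraries, against 97.74%, 98.07% and 97.79% among knockout libraries. The 2 genotypes overlapped at both sites, with an SD over the 6 libraries of 0.0811 points upstream and 0.155 downstream. Both sites were among the 16 most highly methylated of the 192.

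tRNA-Glu-TTC-1-3, on chromosome 13 at positions 23647752 and 23647753, is another copy of the same isodecoder. Upstream it had 97.85%, 97.74% and 97.40% among WT libraries, against 97.65%, 97.89% and 97.96% among knockout libraries, and downstream 97.45%, 96.75% and 97.40% among WT libraries, against 97.24%, 97.64% and 97.54% among knockout libraries. The 4 TTC-1-1 and TTC-1-3 sites thus lay between 97.33% and 98.82% on average over the 6 libraries. The remaining copy, tRNA-Glu-TTC-1-4 on chromosome 14 at positions 76390261 and 76390262, was lower, with 94.92%, 94.34% and 95.60% upstream among WT libraries, against 94.49%, 94.50% and 95.83% among knockout libraries. Its downstream site had 93.54%, 93.21% and 94.03% among WT libraries, against 93.18%, 93.76% and 94.62% among knockout libraries, with replicate 3 highest in both genotypes.

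The other TTC isodecoder was represented by tRNA-Glu-TTC-2-2, on chromosome 14 at positions 79719155 and 79719156. Its upstream site stood at 91.59%, 91.97% and 91.64% among WT libraries, against 91.74%, 92.44% and 91.53% among knockout libraries. Downstream it had 88.45%, 89.25% and 88.72% among WT libraries, against 88.35%, 90.04% and 89.08% among knockout libraries. Replicate 2 was highest in both genotypes at both sites.

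The CTC genes were lower and, in points, more variable from library to library, a spread that is set against counting error below. tRNA-Glu-CTC-1-4, on chromosome 1 at positions 170930659 and 170930660, had 86.5%, 88.9% and 85.4% upstream among WT libraries, against 86.6%, 87.6% and 85.9% among knockout libraries. Its downstream levels were 78.1%, 82.3% and 80.6% among WT libraries, against 79.9%, 82.9% and 80.9% among knockout libraries. Here too replicate 2 was the highest of each genotype at both sites.

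tRNA-Glu-CTC-1-7, on chromosome 10 at positions 30687183 and 30687184, had 76.7%, 82.0% and 81.6% upstream among WT libraries, against 78.3%, 79.6% and 79.0% among knockout libraries. Downstream it had 73.4%, 79.1% and 77.8% among WT libraries, against 75.4%, 76.1% and 77.3% among knockout libraries, so WT replicate 1 was the lowest of the 6 libraries at both sites. tRNA-Glu-CTC-1-6, on chromosome 3 at positions 97065448 and 97065449, was the lowest of the 7 genes, with 66.4%, 62.1% and 64.4% upstream among WT libraries, against 68.7%, 65.6% and 65.9% among knockout libraries. Its downstream site stood at 60.1%, 57.5% and 60.8% among WT libraries, against 59.5%, 64.1% and 64.7% among knockout libraries. Even its highest library, at 68.7%, lay below the lowest library of every other glutamate tRNA site.

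**Figure D1:**
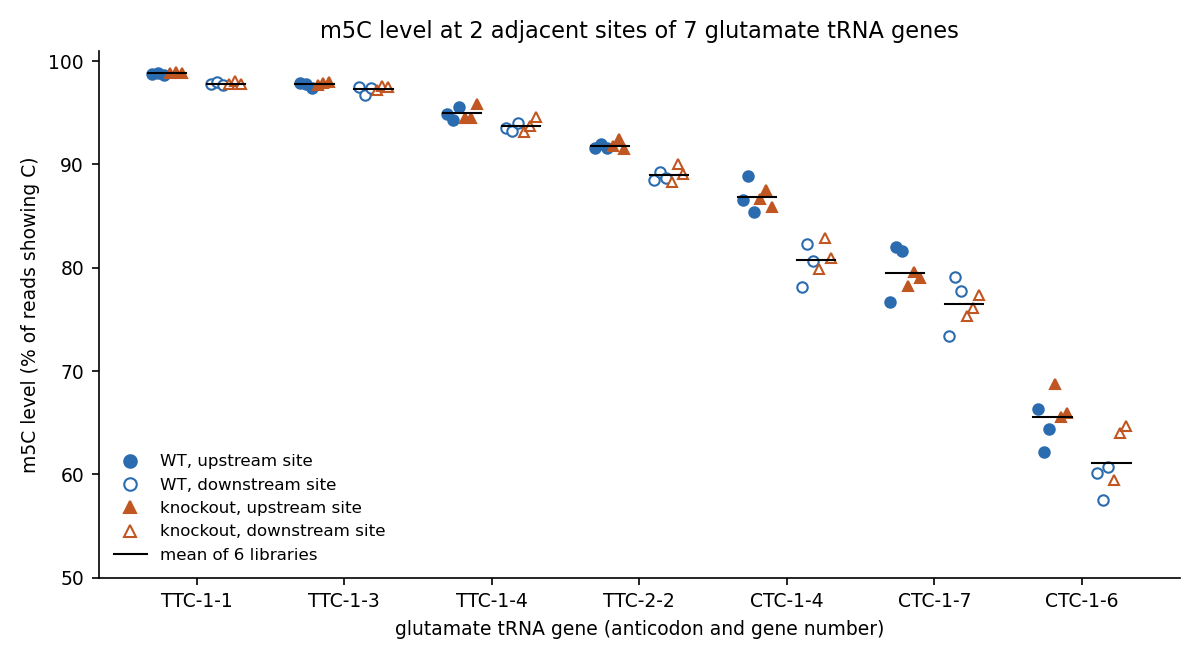
m5C level in percent (y axis, which does not start at 0) of the upstream (filled) and downstream (open) site of each glutamate tRNA gene (x axis), with circles for the 3 WT and triangles for the 3 knockout libraries and a line at the mean of all 6. TTC genes lie near the top, CTC-1-6 lies lowest at means of 65.5% and 61.1%, and the 2 genotypes overlap at all 14 sites.

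Ranked by mean level over the 6 libraries, the 14 sites ran from 98.82% to 61.1%, with all 8 TTC sites above all 6 CTC sites. Not every neighbour in that order lay apart. The libraries of TTC-1-1 downstream overlapped with those of TTC-1-3 upstream, and TTC-1-3 upstream with TTC-1-3 downstream. Overlap was also seen between the 2 sites of TTC-1-4, between TTC-2-2 downstream and CTC-1-4 upstream, between CTC-1-4 downstream and CTC-1-7 upstream, and between the 2 sites of CTC-1-7 and of CTC-1-6. The other 6 steps in the order had no overlap.

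In coordinate order, the downstream cytosine was less often C than its upstream neighbour in all 7 genes and in all 6 libraries of each. The gap was widest in tRNA-Glu-CTC-1-4, at -6.03 percentage points ± 1.47 (SD, n = 6), where the libraries ran from -8.38 to -4.66. tRNA-Glu-CTC-1-6 had a gap of -4.42 ± 3.03 and tRNA-Glu-CTC-1-7 of -3.00 ± 0.756 (SD, n = 6). Among TTC genes, tRNA-Glu-TTC-2-2 had a gap of -2.84 ± 0.389, tRNA-Glu-TTC-1-4 of -1.22 ± 0.281 and tRNA-Glu-TTC-1-1 of -0.989 ± 0.0907 (SD, n = 6). The narrowest was that of tRNA-Glu-TTC-1-3, -0.415 ± 0.323, whose WT replicate 3 differed by only -0.00563 points.

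The test of these gaps was an exact two-sided sign-flip permutation test over the 6 libraries, run on all 64 pairs of neighbouring sites in the small RNA table with Benjamini-Hochberg adjustment. Each of the 7 glutamate pairs had an exact p = 0.031, the smallest that 6 libraries can give, and an adjusted p of 0.0417. Of all 64 neighbouring pairs listed, the 7 glutamate pairs included, 48 passed (75.0%). Passing is therefore common among neighbouring sites of the listed small RNAs, which are not all tRNAs. Among the 31 directly adjacent pairs outside glutamate tRNAs, 10 passed with the downstream site lower (32.3%) and 11 with it higher, and the median size of their difference was 13.7 points, where the glutamate pairs had a median of -2.84. A gene on the minus strand would have its gap turned around. The shared direction, the directions of the other pairs and the matching of sites between genes therefore rest on coordinate order alone. Whether the shared direction differs from that of other tRNAs was not tested, and the 7 genes share sequence and libraries. Of a gene's 2 sites neither was much deeper, the ratio of downstream to upstream coverage being 0.945 to 1.08 over all genes and libraries.

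**Figure D2:**
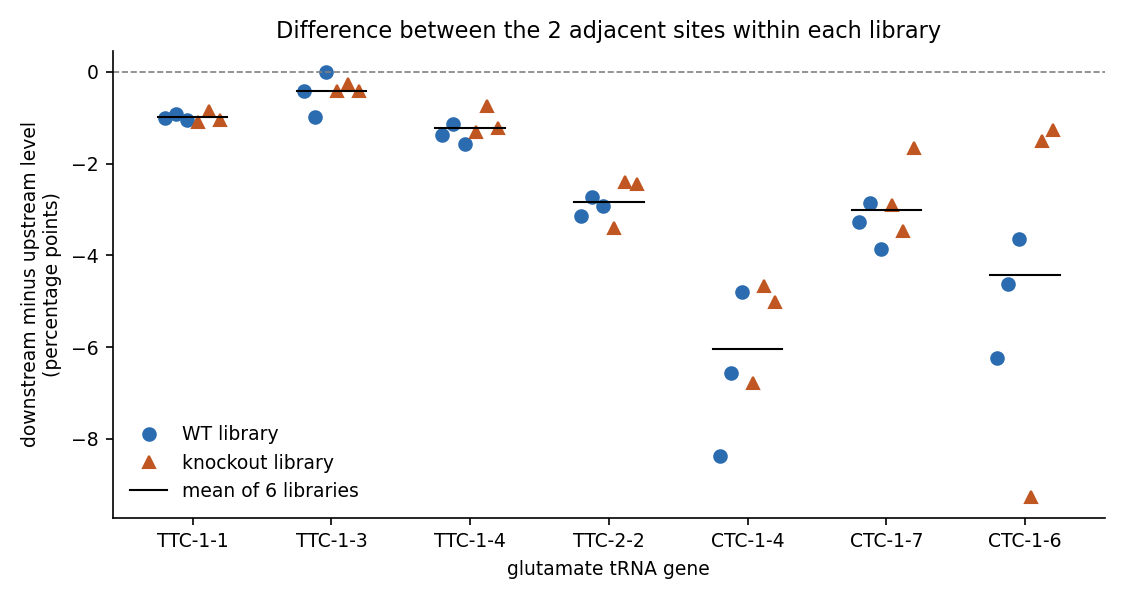
Downstream minus upstream m5C level in percentage points (y axis) within each library for each glutamate tRNA gene (x axis), with circles for WT, triangles for knockout and a line at the mean of 6 libraries. All 42 points lie below the dashed line at 0, from -9.26 points in a knockout library of CTC-1-6 to -0.00563 in a WT library of TTC-1-3.

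The gap looks different when set against the reads that lost their C. At tRNA-Glu-TTC-1-1, 1.18% of reads did not show C upstream and 2.17% downstream, a ratio of 1.84 ± 0.0612 (SD, n = 6), the highest of the 7 genes although its gap in points was among the narrowest. The ratio was 1.46 ± 0.126 for tRNA-Glu-CTC-1-4, 1.35 ± 0.0423 for tRNA-Glu-TTC-2-2 and 1.25 ± 0.0771 for tRNA-Glu-TTC-1-4. It was 1.19 ± 0.143 for tRNA-Glu-TTC-1-3, 1.15 ± 0.0436 for tRNA-Glu-CTC-1-7 and 1.13 ± 0.0975 for tRNA-Glu-CTC-1-6 (SD, n = 6). The order of the genes by gap therefore depends on the scale.

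The gaps of the 2 genotypes overlapped. That of CTC-1-4 was -6.57 ± 1.80 for WT against -5.48 ± 1.13 for the knockout, and that of TTC-2-2 -2.93 ± 0.211 and -2.75 ± 0.556 (SD, n = 3). At TTC-1-1 the gap was -0.986 ± 0.0587 for WT against -0.993 ± 0.131 for the knockout (SD, n = 3). Over the 9 pairs of a knockout with a WT library, the difference in gap ranged across 0 in all 7 genes.

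Genes were compared at matched sites, upstream with upstream and downstream with downstream, which gave 42 comparisons among the 21 pairs of glutamate genes. All 42 had the same direction in every one of the 6 libraries, with p = 0.031 in the exact sign-flip permutation test and an adjusted p of 0.0376 over 95 such comparisons in all cytosolic tRNA families. Over those families 83.2% of comparisons passed, the 42 glutamate ones included. In the other families alone 37 of 53 passed. All 24 comparisons of a TTC with a CTC gene had the TTC gene higher, by 5.00 points for TTC-2-2 over CTC-1-4 upstream up to 36.7 points for TTC-1-1 over CTC-1-6 downstream.

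Copies of the same isodecoder also differed. TTC-1-1 exceeded TTC-1-3 by 1.07 points ± 0.158 upstream and by 0.491 ± 0.356 downstream (SD, n = 6), and it exceeded TTC-1-4 by 3.87 ± 0.683 and 4.10 ± 0.595. TTC-1-3 exceeded TTC-1-4 by 2.80 ± 0.681 and 3.61 ± 0.424 (SD, n = 6). In points the CTC-1 copies spread far more. CTC-1-4 lay above CTC-1-6 by 21.3 ± 2.98 upstream and 19.7 ± 2.88 downstream, and above CTC-1-7 by 7.30 ± 2.04 and 4.27 ± 1.44 (SD, n = 6). The share of upstream reads not showing C ran from 1.18% to 5.05% over the TTC-1 copies. Over the CTC-1 copies it ran from 13.2% to 34.5%. Taken as a ratio, that spread was not wider among the CTC-1 copies. Since the copies have the same mature sequence by their names, reads of the mature tRNA could come from any of them, and the labels and files do not say how reads were shared among copies. The level of a single copy is uncertain for that reason.

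Coverage moved with level among the copies. From TTC-1-1 through TTC-1-3 to TTC-1-4, mean upstream coverage fell from 970135 to 7964 to 2048 reads and the level from 98.8% to 97.7% to 94.9%. From CTC-1-4 through CTC-1-7 to CTC-1-6 the coverage fell from 3566 to 718 to 257 reads and the level from 86.8% to 79.5% to 65.5%. In all 12 comparisons of 2 copies the deeper copy had the higher level in all 6 libraries. Such matching needs copies with at least 2 listed sites, equal spacing and 10 reads in every library, which 3 of 11 multi-copy isodecoders of other cytosolic tRNAs met. In their 9 comparisons the deeper copy was higher on average in 6 and in all libraries in 5. Taking the deepest site of each copy instead, whether or not the positions match, the deeper copy had the higher mean level in 17 of 21 comparisons over all 11 isodecoders and in 6 of 6 among glutamate copies. Between isodecoders the order broke, since TTC-2-2 had a mean of 714214 reads upstream but 91.8%, below the much shallower TTC-1-3 and TTC-1-4. Spearman's rho of level with coverage over the 7 genes was 0.821 at either site, a description over genes that share libraries and sequence. The part of coverage in the differences between copies was not tested.

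**Figure D3:**
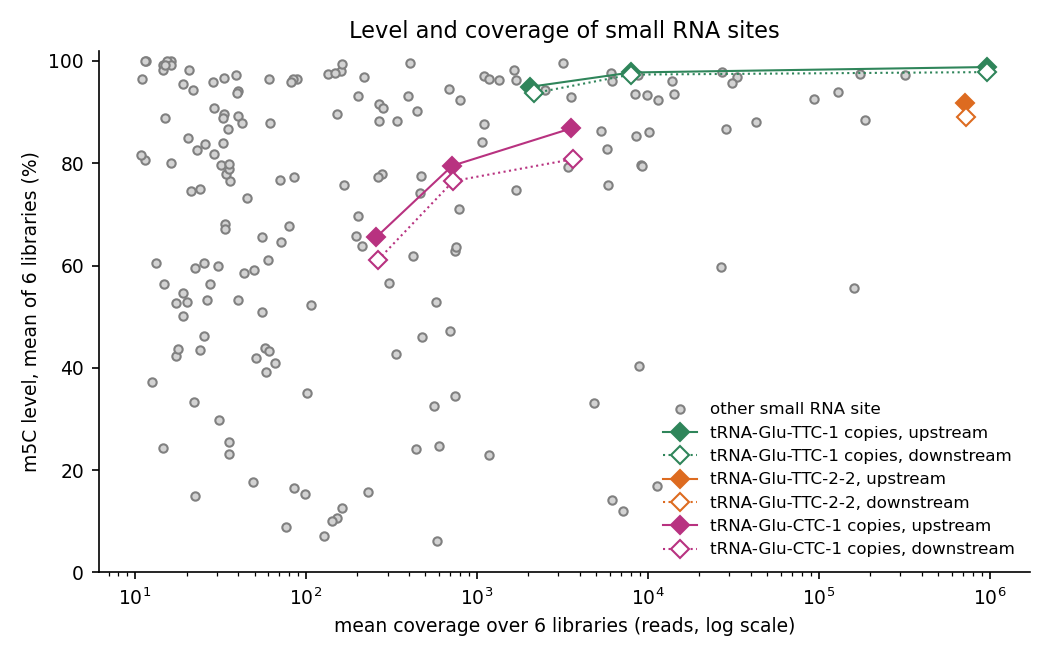
Mean m5C level over 6 libraries in percent (y axis) against mean coverage in reads on a log scale (x axis) for all 192 small RNA sites, with glutamate tRNA sites as diamonds (filled upstream, open downstream) and copies of the same isodecoder joined. Both joined sets rise with coverage, from 65.5% to 86.8% for CTC-1 and from 94.9% to 98.8% for TTC-1 upstream, while the deep TTC-2-2 lies at 91.8% and 89.0%.

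The comparison of genotypes asks whether m5C of these tRNAs depends on Nsun7. None of the 14 sites passed the test. The quasi-binomial model of C reads, a logistic model that takes the spread between libraries from each site, was fitted to all small RNA sites with Benjamini-Hochberg adjustment and called 0 of 184 tested sites (0%), with 7 of 184 (3.80%) at an unadjusted p under 0.05. Of the glutamate sites 0 of 14 had an unadjusted p under 0.05, and limma on the levels called 0 of 187 sites, with 7 at an unadjusted p under 0.05 and none of these in a glutamate tRNA. The exact permutation test of 3 against 3 libraries cannot give a p below 0.1. The libraries of the 2 genotypes overlapped at all 14 sites, while they did not overlap at 22 of all 192, or 11.5%.

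The largest differences were at the thinnest gene. tRNA-Glu-CTC-1-6 had 64.3% ± 2.11 upstream for WT against 66.7% ± 1.73 for the knockout, and 59.5% ± 1.71 and 62.7% ± 2.84 downstream (SD, n = 3). These are differences of 2.44 and 3.26 points, with 95% limma intervals of -1.41 to 6.28 and -1.37 to 7.89 and an adjusted p of 0.877 at both in the quasi-binomial model. Each knockout library stood above the WT library of the same number at the upstream site, and the model with the replicate number as a block gave an unadjusted p of 0.0424 there (adjusted p = 0.787). It was the only glutamate site under 0.05 among 8 of 179 in that model (4.47%). Which site that was depended on the blocked model. In limma on levels it was again CTC-1-6 upstream, at an adjusted p of 0.639. With the quasi-binomial dispersion moderated over all sites, CTC-1-6 upstream was no longer under 0.05 and TTC-1-1 upstream was, with an adjusted p of 0.469. A single library's exact binomial interval at this gene was 10.6 to 13.5 points wide. tRNA-Glu-CTC-1-7 had the knockout lower, by -1.16 points upstream (95% limma interval -5.43 to 3.12) and by -0.501 downstream (-4.92 to 3.92). tRNA-Glu-CTC-1-4 differed by -0.231 upstream and 0.862 downstream, with adjusted p of 0.962 and 0.913 in the quasi-binomial model.

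The TTC genes held the tightest limits. At tRNA-Glu-TTC-1-1 the upstream means were 98.77% ± 0.0907 for WT and 98.86% ± 0.0516 for the knockout (SD, n = 3). They differed by 0.0862 points, which ranged from -0.0368 to 0.234 over the 9 pairs of libraries and was 0.0601, 0.0530 and 0.145 between same-numbered libraries. Downstream the difference was 0.0787 points, with a range of -0.206 to 0.427. tRNA-Glu-TTC-2-2 differed by 0.170 points upstream and 0.352 downstream, tRNA-Glu-TTC-1-3 by 0.166 and 0.271, and tRNA-Glu-TTC-1-4 by -0.0146 and 0.254. The 95% limma intervals of these 8 sites reached at most -1.61 points below and 1.88 points above 0. Over all 14 sites the lower bound, taken as a percentage of the site's WT mean, was at its farthest -6.78%, at CTC-1-7 upstream. limma draws each site's variance towards that of all sites, so these intervals are wider than the spread of the deep sites alone.

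Of the 14 sites 10 had the higher mean in the knockout, and 96 of all 192 did (50.0%). The median difference was 0.168 points over the 14 sites and 0 over all sites with a difference. On the mean level, the difference was 0.431 points over the 14 sites. It was 0.525 over the 159 other small RNA sites with at least 10 reads in every library, and 0.308 over the 119 of other cytosolic tRNAs. Averaged over the 14 sites, WT libraries had 86.3% ± 0.427 and knockout libraries 86.7% ± 0.438 (SD, n = 3), with a range of -0.323 to 1.25 points over the 9 pairs of libraries. Between same-numbered libraries the difference in this mean was 0.426, 0.498 and 0.369 points, higher in the knockout in all 3 pairs. With reads pooled over the 14 sites, which weights them by depth, the same pairs gave -0.258, 0.603 and 0.146 points, so the common sign depends on how sites are weighted. Replicate 2 was the highest library at 8 of 14 sites within WT and at 8 of 14 within the knockout, and knockout replicate 1 was the lowest of its genotype at 11.

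**Figure D4:**
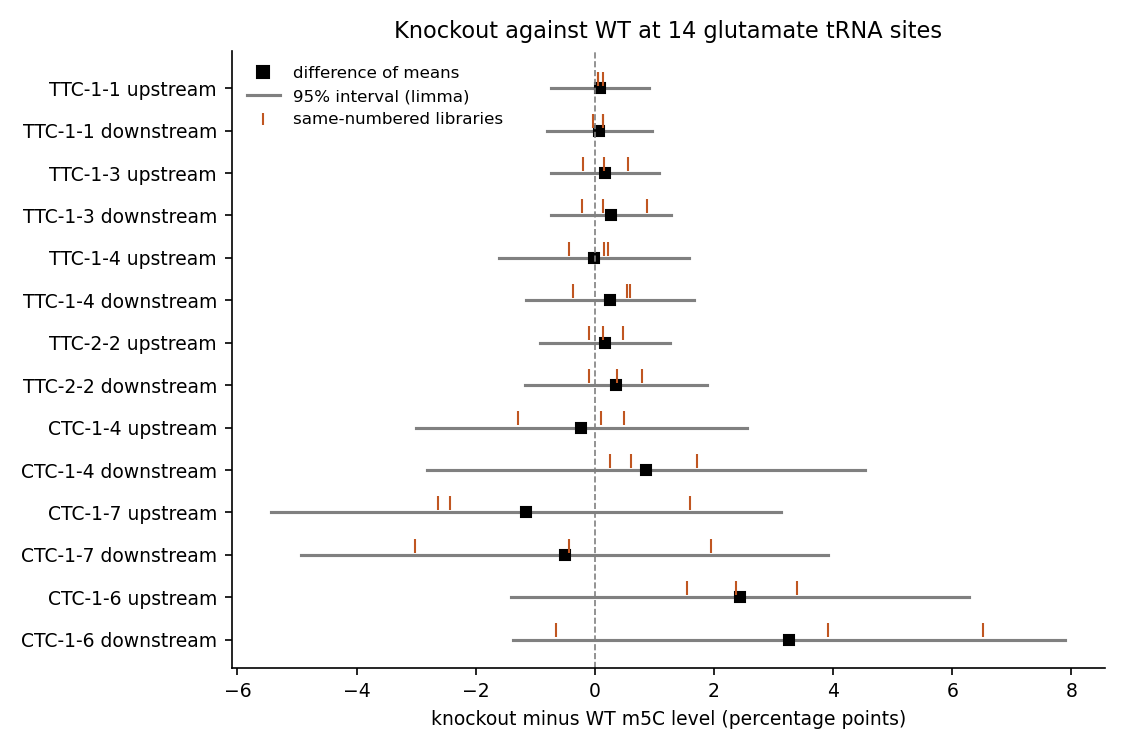
Knockout minus WT m5C level in percentage points (x axis) at the 14 glutamate tRNA sites (y axis), with squares for the difference of means, grey bars for 95% limma intervals and ticks for the 3 same-numbered pairs of libraries. Every interval spans 0, and the TTC intervals are narrower than the CTC ones.

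Deep coverage left little counting error, yet libraries still differed. At tRNA-Glu-TTC-2-2 downstream a single library's 95% exact binomial interval was 0.137 to 0.150 points wide, while the knockout libraries alone ran from 88.35% to 90.04%. The spread between libraries of a genotype was 18.2 times what counting reads would give there, 11.2 times at its upstream site, and 6.65 and 11.3 times at the upstream and downstream sites of TTC-1-1. At the thin tRNA-Glu-CTC-1-6 it was 0.648 and 0.773 times. Pooling reads within a genotype ignores that spread: Fisher's exact test on pooled reads called 4 glutamate sites, both of TTC-1-1 and both of TTC-2-2, at differences of at most 0.287 points, and 24 of all 192 sites (12.5%).

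The depth of these tRNAs was uneven. tRNA-Glu-TTC-1-1 and tRNA-Glu-TTC-2-2 were the deepest of the 128 RNAs and together took 65.8% to 71.1% of listed coverage, while the 3 CTC genes took 0.182% to 0.195%. Next came tRNA-Leu-AAG-1-3 at a mean of 317655 reads, tRNA-Asp-GTC-1-11 at 185333 and the mitochondrial tRNA-Ser2 at 130077. These sums count a read of a tRNA with 2 sites at both.

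Coverage of tRNA-Glu-TTC-1-1 hardly varied. Upstream it was 966736, 968982 and 961677 reads in WT and 977430, 967212 and 978773 in the knockout, and downstream 968517, 972377 and 970104 in WT and 965898, 972312 and 967256 in the knockout. All 12 values thus lay between 961677 and 978773. The coefficient of variation (CV, the SD as a percentage of the mean) over the 6 libraries was 0.685% upstream and 0.275% downstream, the 2 lowest of all 192 sites. The 45 other sites with a mean of at least 1000 reads outside glutamate tRNAs had a median CV of 15.4% and a lowest of 3.98%. No limit on depth in the authors' counting is named in the labels or files, and whether the coverage of this gene follows the amount of RNA was not tested. If it does not, neither its coverage change nor the shares of listed coverage above measure abundance.

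The other genes varied more. tRNA-Glu-TTC-2-2 had 694793, 790639 and 704833 reads downstream in WT and 798423, 676271 and 707239 in the knockout, a CV of 7.16%. tRNA-Glu-TTC-1-3 had 12671, 6778 and 6470 reads upstream in WT and 8887, 5927 and 7049 in the knockout, a CV of 31.6%, with WT replicate 1 at 1.80 times the mean of the other 5 libraries. tRNA-Glu-TTC-1-4 and tRNA-Glu-CTC-1-4 were steady, with CVs of 4.26% to 4.62%, and tRNA-Glu-CTC-1-7 and tRNA-Glu-CTC-1-6 had 11.7% to 16.8%.

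**Figure D5:**
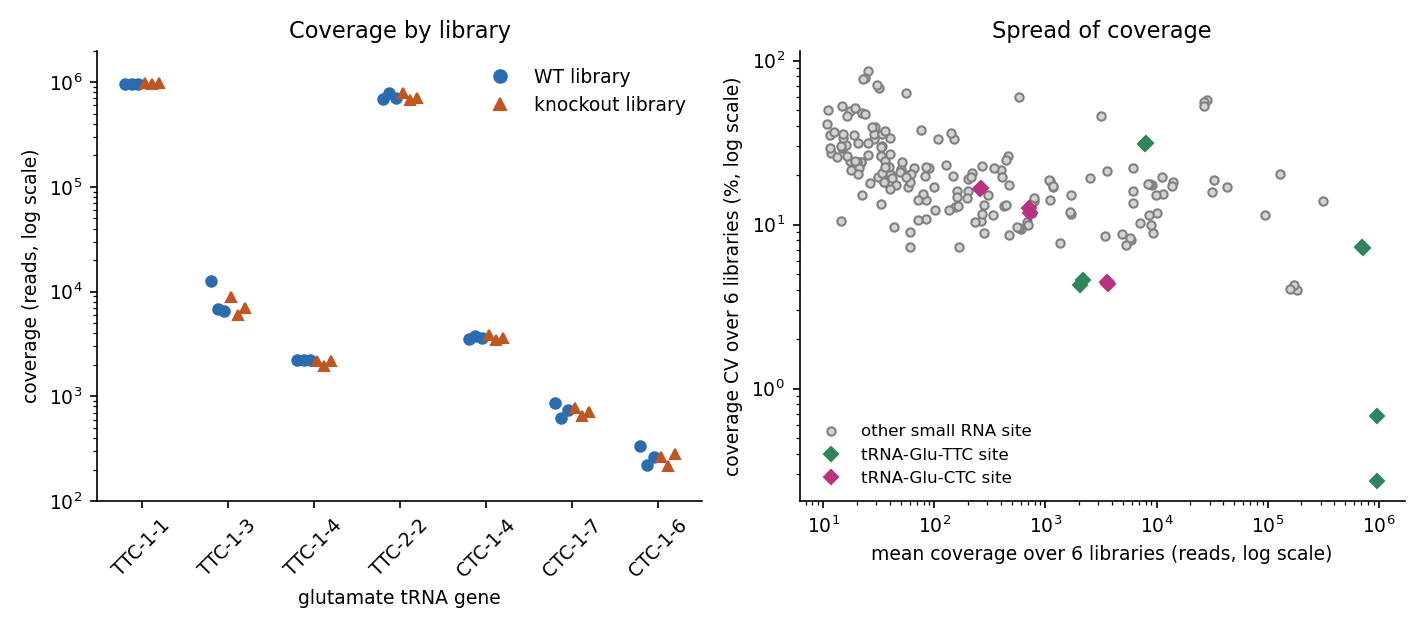
Left, coverage in reads on a log scale of the deeper site of each glutamate tRNA gene, with circles for WT and triangles for knockout libraries. Right, CV of coverage over 6 libraries in percent against mean coverage, both on log scales, for all 192 small RNA sites, with the 2 sites of TTC-1-1 at the bottom right at 0.275% and 0.685%.

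No glutamate tRNA passed the test for a difference in coverage between genotypes. edgeR's quasi-likelihood test, on 1 site per RNA with Benjamini-Hochberg adjustment over 128 RNAs, called 0 (0%), with 5 (3.91%) at an unadjusted p under 0.05 and 0 of the 7 glutamate genes among these, and DESeq2 also called 0, with 2 at an unadjusted p under 0.05. The log2 change from WT to knockout was 0.07 for TTC-1-1 (SE 0.12), 0.05 for TTC-2-2 (SE 0.12), -0.18 for TTC-1-3 (SE 0.22) and -0.03 for TTC-1-4 (SE 0.14). It was 0.04 for CTC-1-4 (SE 0.14), -0.04 for CTC-1-6 (SE 0.19) and -0.01 for CTC-1-7 (SE 0.16). Without WT replicate 1 the change at TTC-1-3 turned to 0.13. At TTC-1-1 the deposited counts themselves differed by a log2 of 0.0129 upstream and -0.00274 downstream, so most of its change comes from the normalization, and it was 0.0171 once WT replicate 1 was left out and 0.273 once knockout replicate 1 was. These are bulk libraries, in which fewer cells of a type and less RNA per cell cannot be told apart.

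Among 26 other anticodon families with at least 2 sites of 10 reads or more in all libraries, the mean level was nearest to that of the glutamate tRNAs in tRNA-Ala-CGC (6 sites, a mean absolute difference of 3.33 points over 6 libraries). tRNA-Lys-CTT (5 sites) and tRNA-Thr-TGT (2 sites) followed, each at 4.03 points. In the mRNA table of 251 sites, none of 10 genes of RNA m5C enzymes and binders had a listed site. Nor did any of 12 gene names looked up for wobble modification or of 8 genes of tRNA cleavage. Of 10 genes around the charging of glutamyl-tRNA, Qars1, which encodes glutaminyl-tRNA synthetase, had a site, at chromosome 9, position 108390121. Its levels were 29.3%, 23.3% and 33.3% among WT libraries and 13.6%, 22.9% and 29.5% among knockout libraries, which overlap, on 43 to 83 reads each (two-sided exact permutation p = 0.3).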

How the data were processed

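Coverage and C counts per cytosine were deposited by the authors as whole-number read counts, beside the m5C level as a fraction of C reads over coverage, per the file headers; the fraction equals their quotient within 0.005. The submitters' processing notes name GRCm39, cutadapt, Trimmomatic, HISAT2, Bowtie2 and SAMtools, without versions or roles. Per the labels' protocols, small RNA was isolated on columns before bisulfite treatment. The 18 samples hold mRNA, large and small RNA libraries, and the 6 small RNA libraries were used for every test; large RNA was not used here.

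Levels were compared between genotypes with a quasi-binomial logistic model per site (R 4.3.3; coverage of at least 10 in at least 2 libraries of each genotype; adjusted p under 0.05), with limma 3.58.1 giving intervals. edgeR 4.0.16 (TMM) tested coverage, at the deepest site of each RNA, with DESeq2 1.42.0 as alternative. Sign-flip tests ran in Python 3.11.15. Counting intervals are exact binomial at 95% and cover counting error only. The quasi-binomial, edgeR and sign-flip tests were each tested on simulated data. The quasi-binomial simulation used large relative drops in level, of which 80% of the smaller and 94.5% of the larger ones were recovered. It did not cover differences as small as those at the glutamate sites. Alternatives covered dispersion, coverage minimum, pooling, normalization, the replicate block and leaving out each library.

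The replicate block treated same-numbered libraries as pairs because the titles share these numbers, though the labels do not say that they mark pairs. Deviations of levels from the group means were divided by counting error. Their Pearson correlations between same-numbered libraries were 0.165, 0.281 and 0.240 over 173 sites. Differently numbered libraries had -0.288 to 0.0960. Outside glutamate tRNAs the values were 0.0836, 0.138 and 0.176, against -0.219 to 0.142. Over the 14 glutamate sites they were 0.819, 0.901 and 0.609, against -0.787 to 0.396. The deep TTC-1-1 and TTC-2-2 sites weigh most there, since their spread was largest against counting error. By Spearman's rank correlation the 14 sites gave 0.398, 0.815 and 0.789, against -0.811 to 0.560. By rank, replicate 1 thus did not stand apart from differently numbered libraries. For the log2 share of coverage, over 112 RNAs, the Pearson correlations were 0.285, 0.270 and 0.0140, against -0.342 to 0.219. All tRNA-Glu- sites are named, plus the 3 anticodon families nearest in mean level, the 3 deepest other RNAs and any listed gene with an mRNA site. The members and gene lists were chosen with earlier results of these data known.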

Additional observations from a re-analysis of the deposited data

How the results depend on the processing

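No glutamate tRNA site was called between genotypes under any model that keeps libraries apart, and leaving out 1 library at a time gave 0 calls throughout. With the replicate block 0 of 179 sites were called. The lowest p among glutamate sites was 0.0424 in the quasi-binomial block and 0.0307 in the limma block, both at CTC-1-6 upstream, and 0.00743 with moderated dispersion, at TTC-1-1 upstream; the last 2 were chosen after seeing the data. The lowest adjusted p over the 3 was 0.469, and no block changed a call. Fisher's exact test on pooled reads called 24 sites, 4 of them in glutamate tRNAs, by its construction without the spread between libraries, and moved TTC-1-4 upstream to 0.00395 points. Leaving out 1 library moved the difference at CTC-1-4 from -0.980 to 0.726 points upstream and -0.248 to 1.83 downstream, at CTC-1-7 downstream from -2.19 to 0.680, at TTC-1-1 downstream from -0.0254 to 0.157, at TTC-1-4 from -0.460 to 0.311 and -0.128 to 0.590, and at TTC-2-2 from -0.0988 to 0.356 and -0.0895 to 0.757. With no change of sign it moved CTC-1-7 upstream from -2.87 to -0.208 (unadjusted p = 0.0103 and adjusted p = 0.666 without WT replicate 1), CTC-1-6 from 1.36 to 3.46 upstream and 2.29 to 4.89 downstream (unadjusted p = 0.0301 and adjusted p = 0.882 without knockout replicate 1), TTC-1-1 upstream from 0.0420 to 0.133, and TTC-1-3 from 0.0341 to 0.259 and 0.0485 to 0.394. It moved the difference in the mean over the 14 sites from 0.185 to 0.680 points and the number of sites higher in the knockout from 8 to 12.

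All 7 neighbouring pairs and all 42 matched comparisons kept their direction without any 1 library, but 5 libraries cannot give a sign-flip p below 0.0625 nor 3 libraries one below 0.25, so neither can pass. Counting 1 site per RNA gave a coverage share of 63.3%. The log2 coverage changes near 0 switched sign: with DESeq2 CTC-1-6 had 0.00624, CTC-1-7 0.0367 and TTC-1-4 0.0185; with coverage averaged over sites CTC-1-7 had 0.0173 and TTC-1-4 0.0225; with the replicate block CTC-1-7 had 0.00158. Leaving out 1 library gave -0.0260 to 0.21 at CTC-1-4, -0.0808 to 0.14 at CTC-1-6, -0.0294 to 0.14 at CTC-1-7, -0.28 to 0.13 at TTC-1-3, -0.0797 to 0.16 at TTC-1-4, -0.0363 to 0.19 at TTC-2-2 and 0.0171 to 0.27 at TTC-1-1. The cause of these switches was not tested. Counting error was largest at CTC-1-6.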
